A study of Mus musculus with 9 samples.

Results

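Resorbing osteoclasts and bone-forming osteoblasts exchange signals that tie bone formation to bone resorption, and 8 genes of these signals were followed here through the day 7 fracture callus. The 8 genes were Efnb2, Ephb4, Sema4d, Plxnb1, Sema3a, Sphk1, S1pr1 and Cthrc1. They were chosen by gene symbol among the 22054 genes of the expression table, and each symbol matched 1 gene. All mice were male C57BL/6J wild types aged 7 weeks according to the sample labels, with a femoral midshaft fracture held by a needle in the marrow cavity. The H-151 group (3 libraries) received the STING inhibitor H-151 daily at 750 nmol in 200 μl. The SR-717 group (3 libraries) received the STING activator SR-717 daily at 30 mg/kg in 200 μl, and the PBS group (3 libraries) received 200 μl of PBS. All were given by intraperitoneal injection for a week that began on the day after surgery. No group was left without a fracture, so the comparisons concern drug treatment of a healing bone. The injected drugs reach the whole animal, so a difference in the callus is not limited to bone cells. Replicates are separate biosamples by their labels, which do not say whether each is 1 mouse.

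In the classical account of coupling, ephrinB2 on the osteoclast surface meets the receptor EphB4 on the osteoblast, and signals run in both directions across the contact. Semaphorin 4D from osteoclasts acts on plexin-B1 of osteoblasts and restrains bone formation, whereas semaphorin 3A, made by osteoblast lineage cells, acts through neuropilin-1 and restrains osteoclasts. Sphingosine kinase 1 makes the lipid mediator sphingosine-1-phosphate (S1P), which acts on the receptor S1PR1, and CTHRC1 is a secreted protein that osteoclasts and stromal cells of repairing tissue produce. None of these genes is limited to bone. Endothelial cells carry ephrinB2, EphB4 and S1PR1, and T cells and other leukocytes carry semaphorin 4D. In bulk tissue, fewer cells of a type and less RNA per cell cannot be told apart.

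The libraries held 16987398 to 23272480 expected counts. The tissue label was bone, and markers of bone cells were present in every library: the 10 osteoblast markers summed to 10413 to 25717 TPM (transcript abundance scaled for gene length) and the 10 osteoclast markers to 5313 to 11065 TPM, with no marker of either list at 0. SR-717 replicate 1 stood apart from the rest. On the first principal component of log2 expression, which held 46.6% of the variance, it lay at 100.6, PBS replicate 1 at 38.8 and the other 7 libraries between -28.8 and -4.03. Of 14294 genes, SR-717 replicate 1 was the highest library for 26.7% and the lowest for 25.6%. Its 8 neutrophil markers summed to 27973 TPM against 1130 to 8371 in the other libraries and its 8 monocyte and macrophage markers to 2496 against 595 to 1253. Its 8 T cell markers summed to 48.6 against 13.7 to 26.7, with 7 of them highest there and 1 lowest. Its 8 chondrocyte markers summed to 122 against 777 to 8127, its osteoblast markers to 10413 against 15493 to 25717 and its osteoclast markers to 5313 against 6591 to 11065. All 8 chondrocyte markers were lowest there, as were 7 of the 10 osteoblast and 6 of the 10 osteoclast markers. The other libraries were uneven as well. Chondrocyte markers summed to 777 TPM in PBS replicate 1 and 8127 in PBS replicate 2. The 8 erythroid markers ran from 789 in PBS replicate 1 to 26008 in H-151 replicate 2. The 8 skeletal muscle markers ran from 5919 in PBS replicate 3 to 32293 in SR-717 replicate 3. Values of the SR-717 comparisons are given below with and without SR-717 replicate 1, which leaves these other differences in place. The part of these cell types in the results was not tested.

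The 8 genes lie on 7 chromosomes in the GRCm38 assembly, which is also called mm10, the build named in the submitters' processing notes. The ephrin pair consists of Efnb2 (ENSMUSG00000001300), on chromosome 8 from 8617434 to 8661242, and Ephb4 (ENSMUSG00000029710), on chromosome 5 from 137350109 to 137378669. The semaphorin genes are Sema4d (ENSMUSG00000021451), on chromosome 13 from 51685529 to 51793747, and Sema3a (ENSMUSG00000028883), on chromosome 5 from 13125414 to 13602565, and the receptor gene Plxnb1 (ENSMUSG00000053646) is on chromosome 9 from 109095389 to 109119917. The S1P genes are Sphk1 (ENSMUSG00000061878), on chromosome 11 from 116530925 to 116536674, and S1pr1 (ENSMUSG00000045092), on chromosome 3 from 115710433 to 115715072. Cthrc1 (ENSMUSG00000054196) is on chromosome 15 from 39076932 to 39087121. Antisense transcripts overlap the 5′ ends of Plxnb1 (by 2408 bases) and Sphk1 (by 2153 bases). Whether the authors' counting used the strand is not stated, so it is not known whether reads of these partners were counted with the genes. Other annotated genes lie on the same strand within Efnb2 (1240 to 5899 bases) and Sema3a (2686 to 4035 bases), where the strand alone would not separate reads. Zan, the only overlapping gene that is in the expression table, shares 33 bases with Ephb4 on the opposite strand.

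The levels of the 8 genes spanned a wide range, and their order was nearly the same in every library. Ordered by mean TPM, the genes ran Cthrc1 (552), Sema4d (95), S1pr1 (57.1), Ephb4 (46.1), Sphk1 (26.1), Efnb2 (12.9), Plxnb1 (9.71) and Sema3a (3.08). Cthrc1 was above Sema4d, Sema4d above S1pr1, Ephb4 above Sphk1, Sphk1 above Efnb2 and Efnb2 above Plxnb1 in 9 of 9 libraries. S1pr1 exceeded Ephb4, and Plxnb1 exceeded Sema3a, in 8 of 9. Across libraries, the ranges of S1pr1 (46.8 to 70.5 TPM) and Ephb4 (33.1 to 56.7 TPM) overlapped widely. The mean TPM of Cthrc1 was above that of 98.8% of the genes in the table, and that of Sema3a above 47.5%. The coefficient of variation of TPM over the 9 libraries was lowest for S1pr1 (13.0%) and highest for Sema3a (55.2%).

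No member passed the thresholds of the study in any of the 3 comparisons, namely a 1.5-fold change with a p under 0.05, taken here as unadjusted, in edgeR's quasi-likelihood test. Across all genes tested, 0.756% passed between SR-717 and H-151, 0.519% between SR-717 and PBS and 0.426% between H-151 and PBS. With the Benjamini-Hochberg adjustment the share of all genes at p under 0.05 was 0.00% in each comparison. Here 146, 97 and 91 genes had an unadjusted p under 0.05, and DESeq2 gave 1, 0 and 0 genes at an adjusted p under 0.05. In the text below, CPM stands for read counts scaled to a common library size by TMM normalization, a log2 fold change is that of the first group named over the second, and the 95% interval is that of the edgeR fit. The 3 comparisons share libraries pairwise, so their values stand side by side and are not independent of each other.

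**Figure D1:**
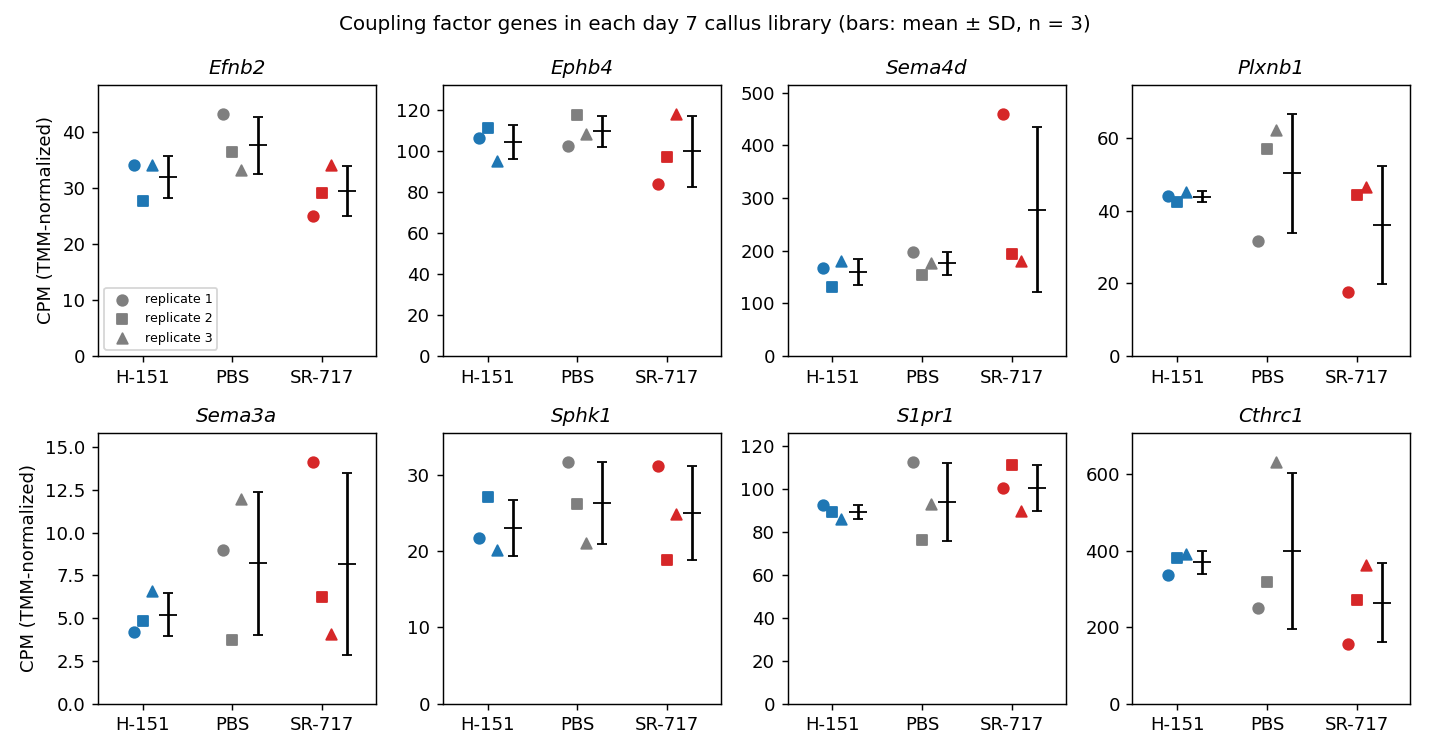
CPM (TMM-normalized counts, linear axes from 0) of the 8 coupling factor genes in each library of the H-151 (blue), PBS (grey) and SR-717 (red) groups; circles, squares and triangles are replicates 1, 2 and 3, and the black bars give the mean ± SD (n = 3). SR-717 replicate 1 is the highest library for Sema4d (459 CPM) and Sema3a (14.2 CPM) and the lowest for Efnb2, Ephb4, Plxnb1 and Cthrc1.

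SR-717 replicate 1 was the highest of the 9 libraries for 2 members, Sema4d and Sema3a, and the lowest for 4, Efnb2, Ephb4, Plxnb1 and Cthrc1. Of all genes, 26.7% were highest and 25.6% lowest in this library. For Sphk1 and S1pr1 it lay within the range of the other libraries. Against the median of the other 8 libraries its CPM was 2.58 times as high for Sema4d and 2.56 times for Sema3a, and it stood at 0.390 of the median for Plxnb1, 0.449 for Cthrc1, 0.735 for Efnb2 and 0.782 for Ephb4. PBS replicate 1, the next library on the first principal component, had the highest CPM of Efnb2, Sphk1 and S1pr1. It was the second lowest of the 9 libraries for Plxnb1 and for Cthrc1. Sema4d was highest and Plxnb1 lowest within the PBS group in PBS replicate 1, as within the SR-717 group in its replicate 1, while Efnb2 stood at opposite ends in these libraries.

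The promoters of the 3 receptor and ephrin genes that were lowest in SR-717 replicate 1 are shown beside 1 promoter of Sema4d, which was highest there, because the study follows a pathway that ends in transcription factors. The RefSeq table for GRCm38.p6 held 12 start sites for 6 of the 8 genes. It held none for S1pr1 or for Cthrc1, which was also lowest in SR-717 replicate 1. It gave 5 starts for Sphk1, 3 for Sema4d and 1 each for Efnb2, Ephb4, Plxnb1 and Sema3a. Each line gives the 250 bases before the start on the strand of the gene, 5′ to 3′, with capitals for GC boxes (GGGCGG on either strand). Plxnb1 is at chr9:109095186-109095435 (+), Efnb2 at chr8:8661243-8661492 (-), Ephb4 at chr5:137349859-137350108 (+) and the most distal of the 3 Sema4d starts at chr13:51756684-51756933 (-).
Plxnb1: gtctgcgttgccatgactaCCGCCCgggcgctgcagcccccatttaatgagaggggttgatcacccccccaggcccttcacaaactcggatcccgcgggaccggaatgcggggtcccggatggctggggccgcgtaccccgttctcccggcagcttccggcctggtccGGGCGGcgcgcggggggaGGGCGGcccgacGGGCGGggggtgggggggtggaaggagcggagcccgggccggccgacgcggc
Efnb2: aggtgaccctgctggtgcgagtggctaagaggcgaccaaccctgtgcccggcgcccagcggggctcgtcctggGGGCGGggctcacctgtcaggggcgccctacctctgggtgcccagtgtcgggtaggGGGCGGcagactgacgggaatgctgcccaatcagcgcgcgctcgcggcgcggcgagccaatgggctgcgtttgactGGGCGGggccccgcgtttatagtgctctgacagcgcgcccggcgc
Ephb4: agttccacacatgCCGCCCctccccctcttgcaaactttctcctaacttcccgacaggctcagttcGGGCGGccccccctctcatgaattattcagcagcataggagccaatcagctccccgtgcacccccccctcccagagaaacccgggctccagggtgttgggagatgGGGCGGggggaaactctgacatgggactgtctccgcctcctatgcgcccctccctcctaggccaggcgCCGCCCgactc
Sema4d: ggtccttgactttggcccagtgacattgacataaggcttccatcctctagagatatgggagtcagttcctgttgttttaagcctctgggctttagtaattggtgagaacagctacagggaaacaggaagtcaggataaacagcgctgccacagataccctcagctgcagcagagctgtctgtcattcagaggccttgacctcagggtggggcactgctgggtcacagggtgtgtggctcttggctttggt
The 3 lower genes had GC-rich promoters, at 75.2% G or C for Plxnb1, 72.0% for Efnb2 and 64.0% for Ephb4. These values were above those of 96.1%, 93.1% and 80.8% of the 32851 promoters in the table. They held 4, 3 and 4 GC boxes, a motif that 32.7% of all promoters held at least once. The 3 Sema4d promoters had 52.0% to 55.2% G or C, and 1 of them held 1 GC box. All 3 lie inside the gene, away from its 5′ end at 51793747, so the sequence before that end was not examined. The promoters of the 3 lower genes lie at or near their 5′ ends, so the contrast sets unlike start sites side by side. The promoter of Sema3a, also highest in SR-717 replicate 1, lies inside its gene too and had 40.8% G or C and no GC box. The lower and higher genes were picked by their place in 1 library, after its values were seen. Of all genes, 26.7% were highest and 25.6% lowest in that library, so the contrast does not define classes of promoter. Whether these sequences bear on the levels was not tested. The consensus motif of NF-κB was found in 1 of the 12 member promoters, an Sphk1 start, against 7.25% of all promoters. The interferon-stimulated response element was in none of the 12 (2.98% of all promoters). The motif TGANTCA of AP-1 was in 1 Sema4d and 2 overlapping Sphk1 promoters (6.75%), and the STAT motif TTCNNNGAA in the same 2 Sphk1 promoters (7.02%). Both strands were searched, and no match overlapped that of another motif.

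The ephrin pair varied little. EphrinB2 is the membrane-bound ligand, and Efnb2 stood at 34.2, 27.7 and 34.1 CPM in H-151 replicates 1, 2 and 3, at 43.3, 36.6 and 33.2 in PBS and at 25.1, 29.2 and 34.2 in SR-717. The PBS libraries lay highest on average, but the groups overlapped in each comparison. The log2 fold change of Efnb2 was -0.35 (standard error 0.19, 95% interval -0.81 to 0.10, adjusted p = 0.9999, edgeR) for SR-717 over PBS, -0.24 (standard error 0.16, interval -0.62 to 0.14) for H-151 over PBS and -0.13 (standard error 0.17, interval -0.54 to 0.28) for SR-717 over H-151. Without SR-717 replicate 1 the values of Efnb2 for SR-717 were -0.25 over PBS and -0.023 over H-151.

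EphB4 is the receptor tyrosine kinase that binds ephrinB2. Ephb4 stood at 106.5, 111 and 95.2 CPM in H-151, at 102.5, 118 and 108 in PBS and at 84.0, 97.2 and 118 in SR-717, with overlap of all groups. Its log2 fold changes were -0.08 (standard error 0.16, interval -0.47 to 0.32) for SR-717 over H-151, -0.13 (standard error 0.18, interval -0.56 to 0.29) for SR-717 over PBS and -0.07 (standard error 0.13, interval -0.37 to 0.23) for H-151 over PBS. These intervals leave out a change of 1.5-fold in either direction. Ephb4 had values of 0.035 over H-151, with the sign turned, and -0.021 over PBS without SR-717 replicate 1. Relative to the receptor, Efnb2 had 0.216 to 0.315 of the TPM of Ephb4 in the H-151 libraries, 0.269 to 0.373 in PBS and 0.257 to 0.266 in SR-717. Ligand and receptor were both lowest in SR-717 replicate 1, so their ratio there (log2 ratio -1.91) was close to that of SR-717 replicate 2 (-1.91).

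Sema4d had the largest increase among the members in the SR-717 group, and that increase came mostly from 1 library. Semaphorin 4D is a transmembrane semaphorin that can be shed from the surface of cells. Sema4d stood at 167, 131 and 180 CPM in the H-151 libraries, at 197, 154 and 176 in PBS and at 459, 194 and 181 in SR-717, where the mean was 278 ± 157 (SD, n = 3). Every SR-717 library was above every H-151 library, by a margin of 181 against 180 CPM at the closest point, and the SR-717 and PBS groups overlapped. Sema4d was the only one of the 8 genes whose SR-717 and H-151 groups did not overlap, where 5.18% of all genes tested did not overlap. Its log2 fold change over H-151 was 0.79 (standard error 0.39, 95% interval -0.15 to 1.73, adjusted p = 0.996, edgeR), and over PBS it was 0.66 (standard error 0.39, interval -0.27 to 1.60). Without SR-717 replicate 1 these values were 0.23 and 0.10. With all 9 libraries in 1 fit, Sema4d passed the unadjusted threshold against H-151 (log2 fold change 0.80, unadjusted p = 0.0472, edgeR), as did 0.763% of all genes in that direction. H-151 against PBS gave -0.14 (standard error 0.17, interval -0.55 to 0.27).

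Plexin-B1 is a receptor of semaphorin 4D, and its gene moved the other way in SR-717 replicate 1. Plxnb1 stood at 44.1, 42.4 and 45.2 CPM in the H-151 libraries, at 31.6, 57.1 and 62.1 in PBS and at 17.5, 44.3 and 46.5 in SR-717. The H-151 libraries were close together, while PBS and SR-717 each held 1 low library, replicate 1 in both. The log2 fold change of Plxnb1 was -0.29 (standard error 0.36, interval -1.16 to 0.58) for SR-717 over H-151, -0.48 (standard error 0.43, interval -1.52 to 0.56) for SR-717 over PBS and -0.20 (standard error 0.25, interval -0.79 to 0.40) for H-151 over PBS. Without SR-717 replicate 1 the first of these turned to 0.041 and the second was -0.14. The value for H-151 over PBS was -0.43 (unadjusted p = 0.012, edgeR) without PBS replicate 1, short of a 1.5-fold change, and -0.016 without PBS replicate 3. Sema4d exceeded Plxnb1 7.04 to 8.26 times in TPM in the H-151 libraries, 5.53 to 14.2 times in PBS and 8.53 to 54.5 times in SR-717. The ratio was 54.5 in SR-717 replicate 1 alone, the next highest being 14.2 in PBS replicate 1. In CPM, which is not scaled for gene length, these values were 26.2 and 6.20, and the H-151 libraries lay between 3.09 and 3.97. The ratio takes in Plxnb1 alone and leaves out other semaphorin receptors, which are described below.

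**Figure D2:**
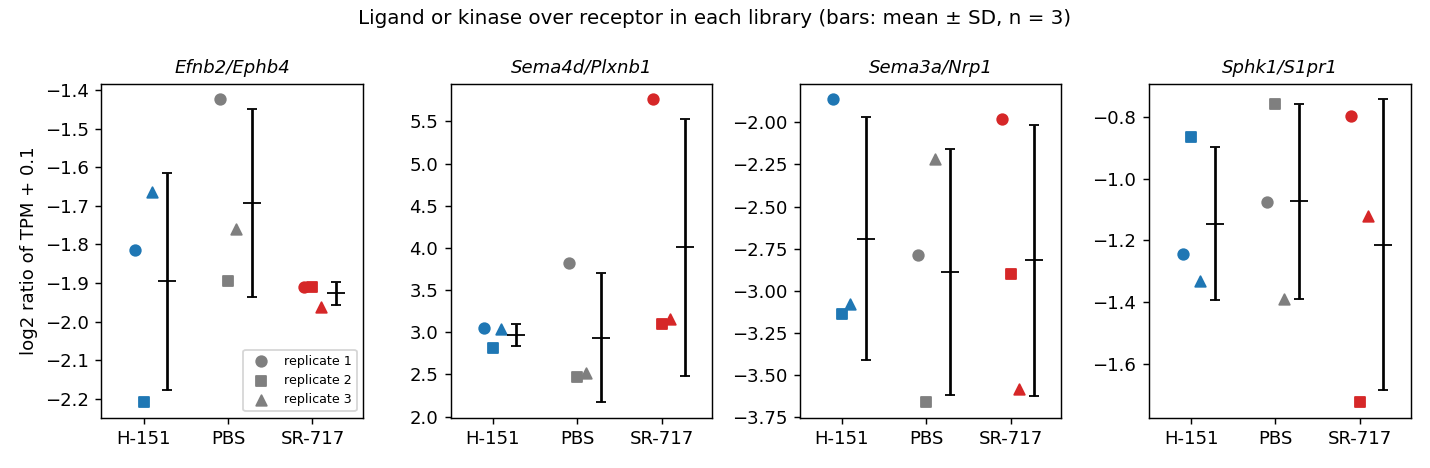
Log2 ratio of TPM (pseudocount 0.1) for Efnb2 over Ephb4, Sema4d over Plxnb1, Sema3a over Nrp1 and Sphk1 over S1pr1 in each library, with the mean ± SD of each group (n = 3) in black; vertical axes differ between panels and do not start at 0. For Sema4d over Plxnb1, SR-717 replicate 1 lies at 5.77 and the other 8 libraries lie between 2.47 and 3.82.

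Same-numbered libraries of SR-717 and PBS deviated together from their group means across genes, with r = 0.65, 0.341 and 0.139 for replicates 1, 2 and 3. Deviations cancel within a group, so these r values depend on each other. The highest r is that of the replicate 1 libraries, which lay at 100.6 and 38.8 on the first principal component. SR-717 and PBS were therefore also compared with the replicate number as a block. In that fit Plxnb1 had a log2 fold change of -0.54 (unadjusted p = 0.026, edgeR) and Cthrc1 of -0.57 (unadjusted p = 0.029, edgeR), both short of a 1.5-fold change, and Sema4d of 0.53 (unadjusted p = 0.11, edgeR). With the block 3.15% of all genes passed both thresholds against 0.519% without it, and none of the 8 members did. For H-151 over PBS the shares were 1.86% with the block and 0.426% without it, again with none of the members. The share of all genes at an adjusted p under 0.05 was 0.00% with the block in both comparisons, where 534 and 431 genes had an unadjusted p under 0.05.

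Sema3a was the least expressed of the 8 genes, and its direction depended on the unit. Semaphorin 3A is a secreted guidance cue of axons and vessels. Sema3a stood at 4.17, 4.83 and 6.61 CPM in H-151, at 8.97, 3.72 and 12.0 in PBS and at 14.2, 6.24 and 4.09 in SR-717. PBS and SR-717 each spread over more than a 3-fold range that enclosed the H-151 libraries. The log2 fold change of Sema3a was -0.66 (standard error 0.44, interval -1.69 to 0.38) for H-151 over PBS, 0.64 (standard error 0.48, interval -0.52 to 1.81) for SR-717 over H-151 and -0.0071 (standard error 0.59, interval -1.44 to 1.42) for SR-717 over PBS. Without SR-717 replicate 1 the value over H-151 was -0.012 and that over PBS -0.66. Without PBS replicate 2, Sema3a was lower in H-151 than in PBS by the unadjusted thresholds (log2 fold change -0.996, unadjusted p = 0.0124, edgeR), in a fit where 1.52% of all genes passed in that direction.

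In TPM, H-151 replicate 1 was the highest of the 9 libraries for Sema3a, at 6.74 against 1.47 to 4.23 in the others, although its expected count of 85 was the second lowest. Its library-scaled count per unit of TPM was 0.237 of the median of the 9 libraries, where the other 8 lay between 0.862 and 1.18, and those of the other 7 genes lay between 0.874 and 1.11 in all 9 libraries. Since TPM divides the count by an estimated transcript length, the deposited values assign a shorter Sema3a transcript to this library than to the others. The annotation lists 9 Sema3a transcripts between 312 and 5930 bases long. Only 3 of 11365 genes with at least 50 counts in every library (0.0264%) had a library this far from their median, taken as 4-fold or more. On the log2(TPM + 1) scale the difference of Sema3a between H-151 and PBS was 0.13, opposite in sign to that of the counts.

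**Figure D3:**
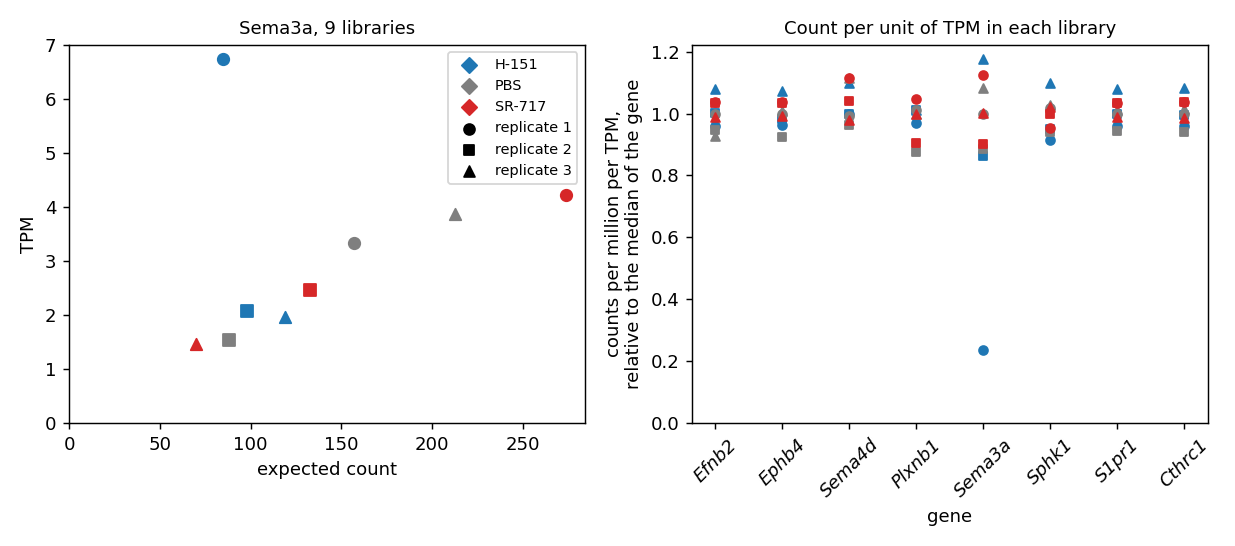
Left, TPM against the expected count of Sema3a in the 9 libraries; right, library-scaled count per unit of TPM relative to the median of each gene, for the 8 genes in each library. Colors mark the groups (H-151 blue, PBS grey, SR-717 red) and shapes the replicates. H-151 replicate 1 lies off the line of the other libraries for Sema3a, with 6.74 TPM from a count of 85, and at 0.237 of the median.

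The S1P genes stayed within the range of the other libraries in SR-717 replicate 1. Sphingosine kinase 1 phosphorylates sphingosine. Sphk1 stood at 21.8, 27.2 and 20.2 CPM in H-151, at 31.8, 26.2 and 21.1 in PBS and at 31.2, 18.9 and 24.9 in SR-717, with overlap of all groups. Its log2 fold changes were 0.11 (standard error 0.23, interval -0.44 to 0.65) for SR-717 over H-151, -0.08 (standard error 0.25, interval -0.68 to 0.53) for SR-717 over PBS and -0.19 (standard error 0.20, interval -0.67 to 0.29) for H-151 over PBS. Sphk1 had values of -0.086 over H-151, with the sign turned, and -0.27 over PBS without SR-717 replicate 1.

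S1PR1 is a G protein-coupled receptor that guides the traffic of lymphocytes and osteoclast precursors and limits leakage from vessels. S1pr1 stood at 92.6, 89.3 and 85.7 CPM in H-151, at 113, 76.1 and 93.0 in PBS and at 100.5, 111 and 89.6 in SR-717. Its groups overlapped, and over the 9 libraries its coefficient of variation was 12.4% in CPM, next to 10.6% for Ephb4, the lowest of the 8 genes in that unit. The log2 fold changes of S1pr1 were 0.16 (standard error 0.13, interval -0.15 to 0.47) for SR-717 over H-151, 0.10 (standard error 0.19, interval -0.37 to 0.56) for SR-717 over PBS and -0.07 (standard error 0.17, interval -0.47 to 0.32) for H-151 over PBS. These 3 intervals leave out a change of 1.5-fold. The SR-717 values of S1pr1 were 0.16 over H-151 and 0.098 over PBS without SR-717 replicate 1. Sphk1 had 0.398 to 0.549 of the TPM of S1pr1 in the H-151 libraries, 0.382 to 0.592 in PBS and 0.302 to 0.576 in SR-717. In CPM these ratios were lower, at 0.236 to 0.305, 0.228 to 0.345 and 0.171 to 0.311.

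Cthrc1 was by far the most abundant of the 8 genes. CTHRC1 is a secreted glycoprotein of activated fibroblasts and osteogenic cells that is known for its rise in injured tissue. Cthrc1 stood at 336, 381 and 390 CPM in H-151, at 249, 317 and 632 in PBS and at 157, 271 and 363 in SR-717. The H-151 libraries were close together, PBS replicate 3 was the highest library, and the groups overlapped. The log2 fold change of Cthrc1 was -0.50 (standard error 0.30, interval -1.23 to 0.23) for SR-717 over H-151, -0.60 (standard error 0.45, interval -1.68 to 0.48) for SR-717 over PBS and -0.11 (standard error 0.34, interval -0.93 to 0.70) for H-151 over PBS. The difference between SR-717 and PBS was -0.33 without SR-717 replicate 1 and -0.11 without PBS replicate 3, while that between SR-717 and H-151 was -0.23 without SR-717 replicate 1. Without SR-717 replicate 3, Cthrc1 (-0.80, unadjusted p = 0.0313, edgeR) and Sema4d (1.03, unadjusted p = 0.0397, edgeR) passed the unadjusted thresholds against H-151, in a fit where 4.60% of all genes passed.

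**Figure D4:**
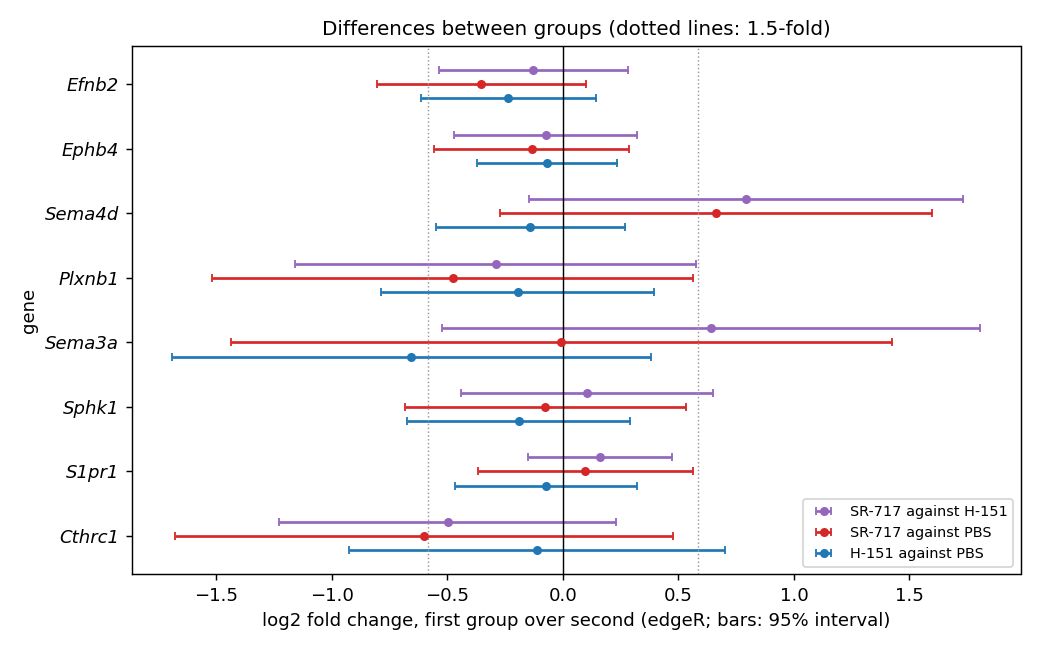
Log2 fold change of each gene with its 95% interval (edgeR) for SR-717 over H-151 (purple), SR-717 over PBS (red) and H-151 over PBS (blue); dotted lines mark a 1.5-fold change. Each of the 24 intervals includes 0, and the widest is that of Sema3a for SR-717 over PBS (-1.44 to 1.42).

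Between H-151 and PBS all 8 members had a negative log2 fold change, from -0.66 (Sema3a) to -0.07 (Ephb4), with a median of -0.17. Of all 14085 genes tested, 55.8% were negative in this comparison and the median was -0.02. The common sign was lost for Cthrc1 without PBS replicate 3 (0.38) and in the fit blocked on replicate (0.0035), for S1pr1 without PBS replicate 1 (0.089) and for Sema3a in TPM. Between SR-717 and PBS 2 members were positive and 6 negative (median -0.11, all genes 0.01), and between SR-717 and H-151 4 were positive and 4 negative (median 0.02, all genes 0.02). The counts were again 2 and 6 (median -0.19, all genes -0.017) and 4 and 4 (median 0.012, all genes -0.0050) without SR-717 replicate 1.

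The wider families were described by lists fixed without regard to how their genes moved, although earlier results of these data were known. They held 90 further genes of ephrin, semaphorin and S1P signaling, plexin-B1 partners and other osteoclast-derived factors, of which 83 were tested in each comparison. With 1 exception, none passed the unadjusted thresholds in any comparison. The exception was Sema4f, a semaphorin gene, at 1.25 on the log2 scale (standard error 0.53, unadjusted p = 0.0499, adjusted p = 0.9999, edgeR) for H-151 over PBS, from 1.56 to 4.54 CPM against 0.857 to 2.20. The share of all genes that passed in this direction was 0.263%.

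Other ephrins and Eph receptors lay low in SR-717 replicate 1, as Efnb2 and Ephb4 did. Of the 20 genes of this list, 12 had their lowest CPM of the 9 libraries there and none its highest, where 25.6% and 26.7% of all genes did. The most abundant were Efna1, an ephrin with a lipid anchor, at 29.4 CPM in that library against 43.1 to 57.3 in the others, and Efnb1, the X-linked relative of Efnb2, at 54.4 against 66.8 to 111. In the tests, 12 of 17 were lower in SR-717 than in H-151 (median log2 fold change -0.11) and 14 of 17 lower than in PBS (median -0.26). Without SR-717 replicate 1, an alternative added for the lists after the data were seen, 9 of 17 (median -0.035) and 13 of 17 (median -0.13) were lower. Between H-151 and PBS 15 of 17 were lower (median -0.09).

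Among the 18 other semaphorins, 3 were highest and 6 lowest in SR-717 replicate 1, where 26.7% and 25.6% of all genes were. Sema7a, which encodes a membrane-anchored semaphorin of immune cells, had the highest mean (63.8 TPM), followed by Sema3f (33.1 TPM), a secreted relative of Sema3a. For H-151 over PBS, Sema7a stood at a log2 fold change of -0.43 (standard error 0.16, unadjusted p = 0.0363, edgeR), which is under 1.5-fold. Sema4a, singled out after its values were seen, was at 155 CPM in SR-717 replicate 1 against 8.77 to 42.7 in the others, a wider gap than that of Sema4d. The medians of the list were 0.05, -0.04 and -0.05 for SR-717 over H-151, SR-717 over PBS and H-151 over PBS, and the first 2 were -0.038 and -0.020 without SR-717 replicate 1.

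Of the receptors other than plexin-B1, Nrp2 (116 TPM) and Plxnd1 (103 TPM) were the most abundant, and both are known from vessels. Plxnb2, singled out after its values were seen, had a mean of 97.2 TPM against 9.71 for Plxnb1, and its 354 CPM in SR-717 replicate 1 lay between the 304 and 397 CPM of the other libraries. Nrp1, the neuropilin that binds semaphorin 3A and the partner chosen for the Sema3a ratio, ranged from 35.9 to 44.4 CPM over the 9 libraries. The TPM ratio of Sema3a to Nrp1 was 0.114 to 0.275 in the H-151 libraries, 0.0790 to 0.215 in PBS and 0.0836 to 0.254 in SR-717. The 0.275 belongs to H-151 replicate 1, whose Sema3a TPM stood apart from its count. In CPM that library had the lowest ratio of the 9 (0.0982), and the ranges were 0.0982 to 0.179, 0.102 to 0.324 and 0.117 to 0.389. The mean log2 ratio of the H-151 group was the highest of the 3 in TPM (-2.69 against -2.89 in PBS and -2.82 in SR-717) and the lowest in CPM (-2.90 against -2.41 and -2.36). Of the 11 receptors tested, 9 were lower in H-151 and 9 lower in SR-717 than in PBS (medians -0.19 and -0.09), and 8 were higher in SR-717 than in H-151 (median 0.10). The 2 counts for SR-717 were the same without SR-717 replicate 1, with medians of -0.077 over PBS and 0.096 over H-151.

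Plexin-B1 signals with partner receptors and intracellular proteins. Of 10 such partners, 5 were highest and 3 lowest in SR-717 replicate 1, where 26.7% and 25.6% of all genes were. Rras, which encodes a small GTPase and had a mean of 85.4 TPM, ranged from 40.4 to 57.9 CPM over the 9 libraries and stood at 46.1 CPM in SR-717 replicate 1. The medians of the list were 0.09 for SR-717 over H-151, 0.03 for SR-717 over PBS and -0.11 for H-151 over PBS. The first 2 turned to -0.041 and -0.18 without SR-717 replicate 1.

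Of the 16 S1P pathway genes, 7 were highest and 3 lowest in SR-717 replicate 1, where 26.7% and 25.6% of all genes were. Sgpl1 (87.3 TPM), whose product breaks S1P down irreversibly, was at 321 CPM there against 142 to 225 in the other libraries. Plpp1 (85.5 TPM), which encodes a lipid phosphatase, was at 43.1 CPM against 56.2 to 84.5. The medians of the 13 genes tested were 0.23 for SR-717 over H-151, 0.07 for SR-717 over PBS and -0.12 for H-151 over PBS, and the first 2 were 0.020 and 0.011 without SR-717 replicate 1.

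**Figure D5:**
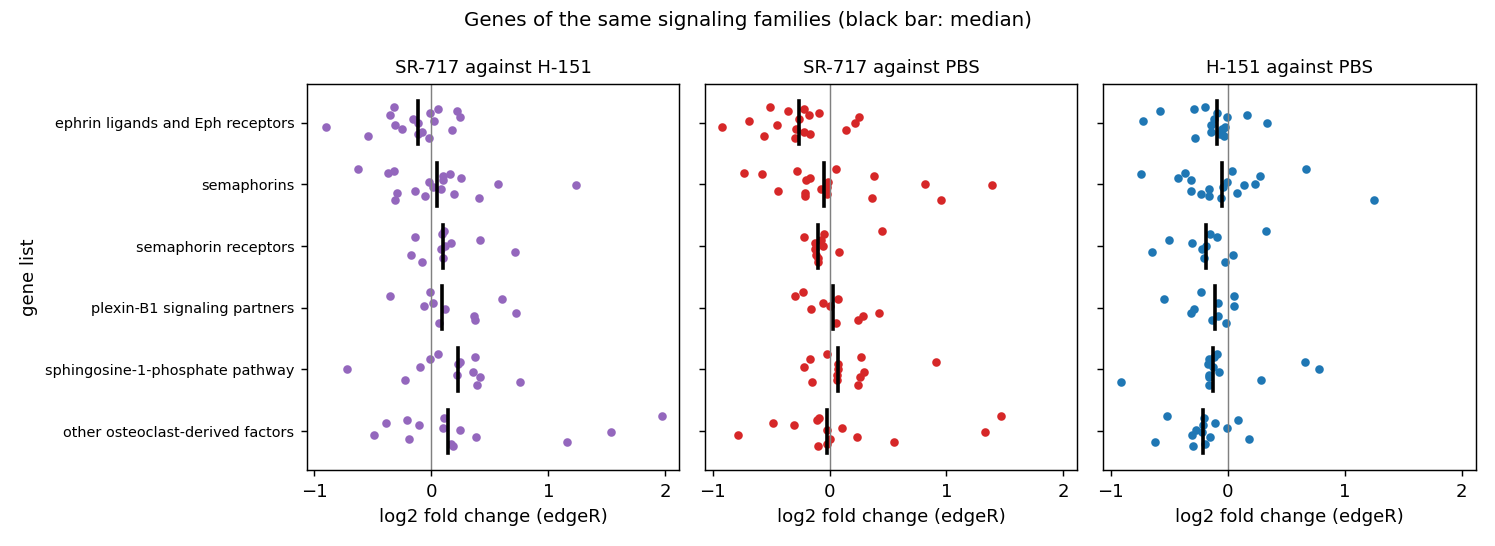
Log2 fold changes (edgeR) of the tested genes of 6 lists of related signaling genes in the 3 comparisons; each point is a gene and the black bar is the median of its list. The ephrin and Eph genes have medians of -0.11, -0.26 and -0.09, and the points of each list fall on both sides of 0.

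The genes whose log2 CPM followed each member most closely over the 9 libraries were ranked by Pearson's r, as a description over libraries that share SR-717 replicate 1 as an extreme. The top 3 of 14294 genes over 9 libraries have a high r by selection, and no r expected by chance was computed. For Plxnb1 they were Pth1r (r = 0.99), the parathyroid hormone receptor gene of osteoblast lineage cells and chondrocytes, Dlg5 (0.99) and Ctsf (0.99), at 0.97, 0.98 and 0.94 without that library. For Sema4d they were Zfp953 (0.99), Dnase2a (0.98) and Cry1 (0.98), and none of the 3 was among the first 3 without SR-717 replicate 1 (r = 0.90, 0.91 and 0.81). For Cthrc1 they were Cdc16, Lclat1 and Arfip2 (each 0.98), at 0.97, 0.96 and 0.95 without it.
For Efnb2 the closest genes were Rundc3a (0.96), Rbm5 (0.91) and Rgs7bp (0.91), and for Ephb4 Tbc1d9b (0.97), Calhm2 (0.96) and Chpf (0.96). For Sema3a they were Ccnl1 (0.98), Pi4k2b (0.98) and Lypla1 (0.97), and for Sphk1 Nr4a3 (0.97), an immediate-early nuclear receptor gene, Eif6 (0.96) and Mcpt1 (0.94). For S1pr1 they were Gkap1 (0.98), Ccdc59 (0.95) and Zfp429 (0.94). Leaving out SR-717 replicate 1 kept 2 of the first 3 for Ephb4, 1 of 3 for Plxnb1, Sema3a, Sphk1, S1pr1 and Cthrc1, and 0 of 3 for Efnb2 and Sema4d. No member was among the 3 genes closest to another.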

How the data were processed

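Callus RNA from 9 libraries (3 groups of 3) was poly(A)-selected, made into strand-specific libraries and read from both ends. The extraction protocol in the labels speaks of cell lines, whereas the tissue label is bone and the study's methods name callus, which is followed here. Sequencing and analysis up to the table were done by a service company. The table that the authors deposited holds unnormalized expected counts, of which 8.91% were not whole, and TPM values scaled for gene length to the same sum in each library. The genome build in the submitters' processing notes is mm10. The aligner, the counting program and the annotation are not given in the sources used here. Groups and replicate numbers came from the sample labels.

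Expected counts were rounded and all 22054 genes entered edgeR 4.0.16 in R 4.3.3: filterByExpr (count of 10, total of 15), TMM, glmQLFit and glmQLFTest, fitted to 6 libraries at a time, without covariates, with Benjamini-Hochberg adjustment over all genes tested. This gave 14070 to 14151 genes. Standard errors came from the F statistic and 95% intervals from its degrees of freedom. All 8 members passed the filter in each comparison. The study names DESeq with a 1.5-fold change and p under 0.05, so DESeq2 1.42.0 was an alternative, as were DESeq2 size factors, no filter, a mean count of 50, all 9 libraries, limma 3.58.1 on log2(TPM + 1), a 2-fold threshold, the replicate number as a block and each library left out. A library left out leaves 2 against 3. The script was tested on simulated data.

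In a check of pairing, the deviations of libraries with the same number correlated with r = 0.139 to 0.650 for SR-717 and PBS and 0.305 to 0.503 for H-151 and PBS, over 0.1 in every pair, and with r = 0.062 to 0.342 for SR-717 and H-151. What a number stands for is not in the labels. Libraries of a group differed by a chi-square per gene of at least 21.5, so none was a copy of another. P-values measure the spread between these samples, which may be technical.

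Members and lists were chosen with earlier results of these data known. Named genes were the members, the 2 genes with the highest mean TPM in each list, list genes past the unadjusted thresholds and the 3 genes with the highest r for each member, and 1 gene that this rule names is not reported here. Nrp1 was named as the partner in the Sema3a ratio, and Sema4a, Plxnb2, Sphk2 and S1pr2 to S1pr5 were named after their values were seen. Ratios were taken in TPM with 0.1 added, and alternatively in CPM or with 1 added. Positions and transcripts come from GENCODE M21 and promoters from RefSeq. Protein sequences, day 21 calluses, imaging and cell cultures are not analysed here.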

Additional observations from a re-analysis of the deposited data

How the results depend on the processing

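The number of members past the unadjusted 1.5-fold threshold was 0 in each comparison and under every alternative other than the following. It was 1 (Sema4d) for SR-717 over H-151 with all 9 libraries in 1 fit, and it ranged from 0 to 2 in that comparison and from 0 to 1 for H-151 over PBS when a library was left out. Of 168 log2 fold changes under the other alternatives, 162 kept their sign and their side of the threshold and 5 changed sign. Those were Sema3a on the log2(TPM + 1) scale (-0.22 for SR-717 over H-151 and 0.13 for H-151 over PBS), where H-151 replicate 1 has a high TPM from a low count, Sema3a for SR-717 over PBS with DESeq2 size factors (0.0056) and DESeq2's Wald test (0.0048), and Cthrc1 for H-151 over PBS with the replicate block (0.0035). The block changed no other sign and no call of a member.

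When each library was left out, 15 of 24 log2 fold changes kept their sign. The other 9 ranged, for SR-717 over H-151, from -0.21 to 0.035 (Ephb4), -0.51 to 0.041 (Plxnb1), -0.012 to 0.96 (Sema3a) and -0.086 to 0.27 (Sphk1). For SR-717 over PBS they ranged from -0.66 to 0.37 (Sema3a), -0.27 to 0.088 (Sphk1) and -0.041 to 0.25 (S1pr1), and for H-151 over PBS from -0.19 to 0.089 (S1pr1) and -0.35 to 0.38 (Cthrc1). Sema3a rested on 70 to 274 counts per library, the fewest of the 8 genes. With 3 libraries a group, the intervals do not leave out changes of 2-fold for Sema4d, Sema3a, Plxnb1 and Cthrc1 in the comparisons with SR-717.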

Other observations

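The 14 other osteoclast-derived factors, a receptor gene among them, included complement C3 and Tgfb1, the most abundant at means of 184 and 161 TPM. C3 spread from 42.3 to 566 CPM in 8 libraries and stood at 1620 CPM in SR-717 replicate 1. Its log2 fold change was 1.54 (standard error 0.99) for SR-717 over H-151 and 1.33 (standard error 1.17) for SR-717 over PBS, with an adjusted p of 0.996 and 0.9999 in edgeR's test. Both turned negative, to -0.24 and -0.46, without SR-717 replicate 1, an alternative added after the data were seen. Tgfb1, the latent growth factor that resorption frees from bone matrix, ranged from 168 to 225 CPM over the 9 libraries. The medians of the list were 0.14 for SR-717 over H-151, -0.02 for SR-717 over PBS and -0.21 for H-151 over PBS, where 12 of 14 were lower. The first 2 medians were -0.020 and -0.071 without SR-717 replicate 1.

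The S1P receptors, singled out after their values were seen, had mean levels of 57.1 TPM for S1pr1, 36.8 for S1pr3, 12.2 for S1pr2, 5.39 for S1pr4 and 0.326 for S1pr5. S1pr4, a receptor of blood cells, was at 14.6 CPM in SR-717 replicate 1 against 2.25 to 10.2 in the other libraries, and S1pr2 at 63.3 against 33.1 to 49.7, while S1pr1 and S1pr3 showed no such gap. Sphk2, the other sphingosine kinase gene, also singled out after its values were seen, was at 60.7 CPM there against 32.1 to 41.0. The part of leukocytes in these values was not tested.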
